A study of Mus musculus with 8 samples.

Results

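Among the liver cells of mice fed a high fat, high cholesterol (HFHC) or a control diet, liver sinusoidal endothelial cells (LSEC) with transcripts of Esm1, Kcne3, Kcnj8 or Abcc9 are described here. A cell counted as LSEC-gated when at least 2 of the 6 LSEC genes Stab2, Clec4g, Oit3, Gpr182, Fcgr2b and Dnase1l3 had 1 or more unique molecular identifier (UMI, 1 counted transcript) and Vwf, a gene of large-vessel endothelium, had 0. An LSEC-gated cell was called positive when the summed UMIs of Esm1, Kcne3, Kcnj8 and Abcc9 reached 1. This gave 228 positive cells among 1261 LSEC-gated cells and 3192 cells in all. Of the 228, HFHC library 4 held 192 and control library 3 held 16. The cells were thus chosen by their measured UMIs of 11 genes, whose levels are descriptions without a test. The 4 genes were themselves picked with their difference between these libraries in view.

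The 8 libraries came from 8 male C57BL/6 mice, 4 on the HFHC diet and 4 on control chow, with 1 library per mouse. Mice were bought at 6 to 8 weeks of age and fed for 20 to 32 weeks, and the labels do not say how long each mouse was fed. The titles of the HFHC samples name a high calorie diet where the design text says high cholesterol. All cells were sorted from the non-parenchymal fraction of the liver, with antibodies to CD31, CD146, PDPN and CD45. Levels are given as CPM, the UMIs of a gene summed over cells and scaled to a fixed total, so a level is relative to all transcripts of those cells.

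LSEC line the sinusoids, the fenestrated capillaries of the liver, and clear lipoproteins and waste molecules from blood through scavenger receptors. Esm1 encodes endocan, a secreted proteoglycan known from endothelial tip cells of growing vessels. Kcnj8 and Abcc9 encode Kir6.1 and SUR2, the pore and the regulatory subunit of an ATP-sensitive potassium channel that is best known in pericytes and vascular smooth muscle, and Kcne3 encodes an accessory subunit of voltage-gated potassium channels.

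In mm10, Esm1 lies on chr13:113209659-113218098 and Kcne3 on chr7:100176502-100184869, both on the plus strand, per GENCODE M21. Kcnj8, at chr6:142564837-142571614, and Abcc9, at chr6:142587862-142702315, are neighbours on the minus strand with 16247 bases between them. The sequences before their start sites are shown because the 4 genes were detected together in cells. They are RefSeq promoter sequences of GRCm38.p6 (the assembly of mm10), 5′ to 3′ on the gene's strand, and those of Kcne3 and Abcc9 end where GENCODE places the first base of the gene. Capitals mark GGAA or its reverse complement TTCC, the core motif of ETS factors, a family active in endothelium. The windows are chr13:113209409-113209658 for Esm1, chr7:100176420-100176501 for Kcne3, chr6:142571615-142571864 for Kcnj8 and chr6:142702316-142702524 for Abcc9.
Esm1: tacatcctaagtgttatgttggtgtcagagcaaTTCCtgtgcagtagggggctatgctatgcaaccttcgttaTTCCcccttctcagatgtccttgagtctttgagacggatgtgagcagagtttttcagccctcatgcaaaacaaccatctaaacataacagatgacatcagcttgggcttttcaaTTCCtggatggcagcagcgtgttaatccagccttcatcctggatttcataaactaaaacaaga
Kcne3: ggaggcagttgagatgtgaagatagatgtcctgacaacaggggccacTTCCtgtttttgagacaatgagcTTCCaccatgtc
Kcnj8: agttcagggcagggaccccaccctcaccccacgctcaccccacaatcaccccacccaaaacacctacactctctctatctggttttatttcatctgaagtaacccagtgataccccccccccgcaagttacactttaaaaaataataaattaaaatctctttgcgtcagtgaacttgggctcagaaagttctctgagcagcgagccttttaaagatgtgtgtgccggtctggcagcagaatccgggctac
Abcc9: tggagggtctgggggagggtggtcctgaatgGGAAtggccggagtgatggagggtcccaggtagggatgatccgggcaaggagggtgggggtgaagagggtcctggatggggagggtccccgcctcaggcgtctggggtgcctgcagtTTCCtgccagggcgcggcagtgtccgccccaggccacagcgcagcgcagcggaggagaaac
The 250 bases of Esm1 held 3 matches and the 250 bases of Kcnj8 held 0, where 93.4% of 32536 promoter windows of that length held at least 1. The 82 bases of Kcne3 held 2 matches (60.2% of windows of that length held 1 or more), and the 209 bases of Abcc9 held 2 (90.1%). A 4-base motif is thus common in any promoter, and its presence describes the sequence only.

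The libraries differed in what they contained before any gene was compared. LSEC-gated cells numbered 23, 3, 3 and 536 in HFHC libraries 1 to 4, and 38, 67, 548 and 43 in control libraries 1 to 4, so HFHC 4 and control 3 carried nearly all of them. Depth in these cells was similar in the main pair, with medians of 1614 UMIs per LSEC-gated cell in HFHC 4 and 1471 in control 3. Some cell barcodes occurred in several libraries, and each was kept only where it had most UMIs, which removed 1 cell of HFHC 4 and 5 of control 3. With LSEC in number in a single library of each diet, diet and library cannot be told apart, and what follows compares these libraries.

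Positive cells were frequent in HFHC 4 and rare in control 3. They made up 192 of 536 LSEC-gated cells in HFHC 4, or 35.8% (exact 95% Clopper-Pearson interval 31.8 to 40.04), against 16 of 548, or 2.92% (1.68 to 4.70), in control 3. All intervals given here cover counting error only and not the spread between mice. In the smaller HFHC libraries 1 to 3, 9 of 23, 2 of 3 and 2 of 3 LSEC-gated cells were positive. These cells were deeper, at medians of 9142, 7442 and 4373 UMIs, against 1614 in HFHC 4 and 2574.5, 2191 and 1933 in control 1, 2 and 4. Since 1 UMI makes a cell positive, the share depends on depth. In control libraries 1, 2 and 4, 3 of 38, 4 of 67 and 0 of 43 were positive, and the 0 of 43 allows a share of up to 6.98% by 3 counts, and of up to 8.22% by the exact interval.

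**Figure D1:**
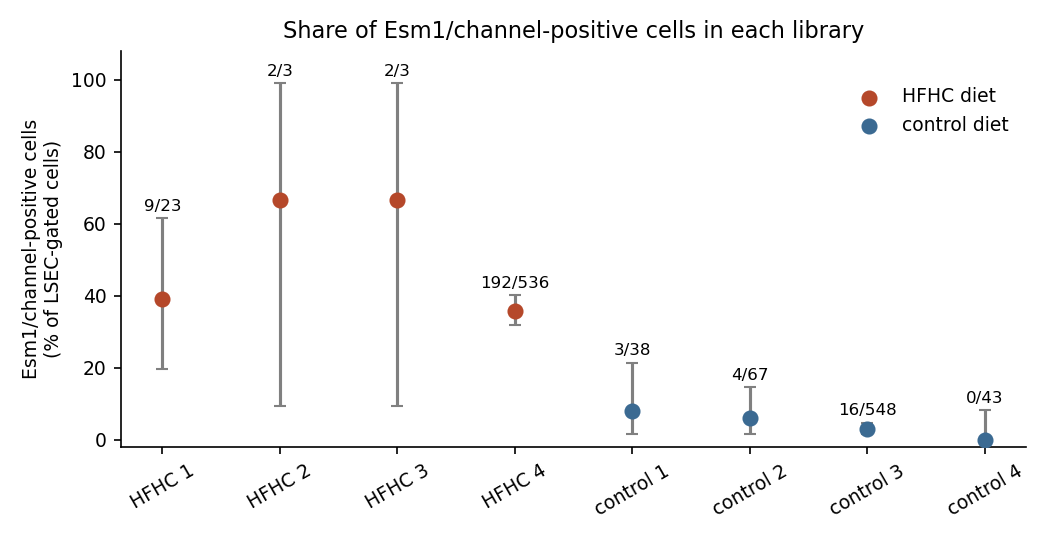
Share of positive cells among LSEC-gated cells (percent) in each of the 8 libraries; points are the shares, bars the exact 95% binomial intervals, and the numbers above them positive over LSEC-gated cells. HFHC 4 stands at 35.8% and control 3 at 2.92%, while HFHC 2 and HFHC 3 rest on 3 LSEC-gated cells each.

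Markers that the rule did not use were counted in each positive cell to check the name of the population. In HFHC 4, all 192 positive cells carried at least 1 of 10 endothelial markers and 181 carried at least 3. Of the 6 LSEC markers outside the gate, 184 cells carried at least 1 and 117 at least 3. In control 3 these numbers were 16, 15, 15 and 11 of 16. At least 3 hepatocyte markers were found in 2 of the 16 positive cells of control 3, and in 14 of its 532 other cells. Pericyte and smooth muscle markers, the usual site of Kcnj8 and Abcc9, summed to 2 UMIs in HFHC 4 positive cells, both of Mylk, with 11 of 12 markers at 0. Fibroblast, cholangiocyte and neutrophil markers were at 0 UMIs there, and the 5 leukocyte markers summed to 5 UMIs in 192 cells. Stellate cell markers summed to 169 UMIs there with 6 of 10 at 0, and hepatocyte markers to 67 UMIs with none of 12 at 0. Macrophage markers summed to 19 UMIs with 6 of 12 at 0. At least 1 stellate, hepatocyte or macrophage marker was found in 88, 55 and 9 of the 192 positive cells. The same counts were 128, 68 and 4 of the 344 other cells of HFHC 4. At least 3 markers were found in 1 positive cell for each of these lists. The 9 monocyte and dendritic cell markers summed to 755 UMIs with 7 at 0, led by Bst2. In HFHC 1, by contrast, none of the 9 positive cells had an Esm1 UMI. LSEC markers were detected there, 12 of 12 over the 9 cells, though 6 of the 12 are gate genes that the rule used. All 9 also carried UMIs of Krt8 and Spp1, bile duct genes, and of C1qb, a macrophage gene, in unlike amounts. These counts ran from 1 to 48 UMIs of Krt8, 2 to 326 of Spp1 and 1 to 153 of C1qb. Cells with 21, 19 and 4 Clec4g UMIs had at most 2 of Krt8, 5 of Spp1 and 2 of C1qb. Of the 9 barcodes, 8 also occurred in another library. The 2 positive cells of HFHC 2 had 1 Kcne3 UMI each, 0 Esm1, and 317 and 226 UMIs of Spp1. These 11 cells count by the rule, and of the comparisons of levels they enter only an alternative fit with a minimum of 5 cells, through HFHC 1.

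The 2 positive cells of HFHC 3 summed to 16 and 9 UMIs of the 4 genes. Each had 5 Esm1 UMIs and 1 Abcc9 UMI, the first also 6 of Kcne3 and 4 of Kcnj8, and the second 3 of Kcne3 and 0 of Kcnj8, and both carried Stab2, Clec4g, Pecam1 and Cdh5. The highest sum in any positive cell of a control library was 6, in control 3. Of the 4 positive cells of control 2, 3 carried Abcc9, with 3, 2 and 1 UMIs, and the 4 cells together carried 261 UMIs of stellate cell markers and 25 UMIs of pericyte and smooth muscle markers. Their part in the control 2 count was not tested.

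Among the 4 genes, the secreted proteoglycan Esm1 was the most frequent in HFHC 4. It had 426 UMIs in 131 of 536 LSEC-gated cells (24.4%, interval 20.9 to 28.3), against 3 UMIs in 3 of 548 cells (0.547%, 0.113 to 1.59) in control 3. The channel pore gene Kcnj8 had 110 UMIs in 67 cells of HFHC 4 (12.5%), against 10 UMIs in 7 cells of control 3 (1.28%). Its partner Abcc9 had 65 UMIs in 50 cells of HFHC 4 (9.33%), against 6 UMIs in 6 cells of control 3 (1.09%). Kcne3 had 85 UMIs in 50 cells of HFHC 4 (9.33%), against 3 UMIs in 2 cells of control 3 (0.365%). Since the 4 genes were picked with this difference in view, it is given without a test. The highest count of Esm1 in a single cell was 24 UMIs in HFHC 4 and 1 in control 3.

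The balance of the 4 genes differed as well, as a description of few counts. Within positive cells, Esm1 stood at 1000.4 CPM in HFHC 4 and 117.8 CPM in control 3, where its value rests on 3 UMIs. Kcnj8 stood at 258 CPM in HFHC 4 and 393 CPM in control 3. Abcc9 stood at 153 CPM in HFHC 4 and 236 CPM in control 3. These levels follow from the choice of cells by the same genes, and do not compare expression between the libraries. Over all LSEC-gated cells, Kcnj8 stood at 118 CPM in HFHC 4 and 12.6 CPM in control 3. Abcc9 stood there at 69.9 CPM in HFHC 4 and 7.53 CPM in control 3. Of the 16 positive cells in control 3, 13 were positive through a channel gene without Esm1, against 61 of 192 in HFHC 4.

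**Figure D2:**
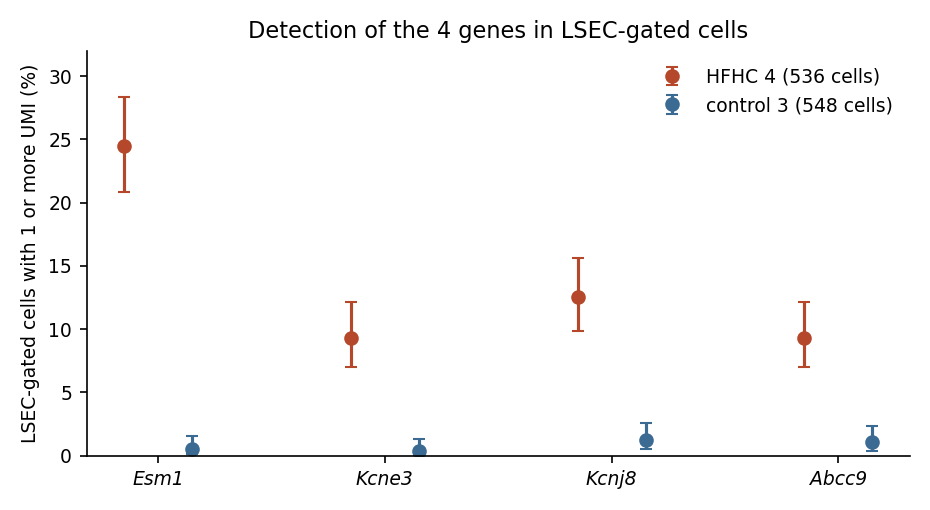
Percent of LSEC-gated cells with 1 or more UMI of each of the 4 genes, in HFHC 4 (536 cells, left point of each pair) and control 3 (548 cells, right point); bars are exact 95% binomial intervals. Esm1 reaches 24.4% in HFHC 4, the channel genes 9.33% to 12.5%, and all 4 lie at or under 1.28% in control 3.

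As a measure of free RNA, cells outside the gate were counted. In HFHC 4, 43 cells with a Vwf UMI, which were large-vessel-like by that gene and had a median of 2332 UMIs, held Esm1 in 3 cells (6.98%, interval 1.46 to 19.1), against 24.4% of the LSEC-gated cells at a median of 1614 UMIs. In control 3, 3 of 26 cells outside the gate held Esm1 (11.5%), none of them among the 9 with Vwf, against 3 of 548 within it. The other 37 cells outside the gate of HFHC 4, at a median of 707 UMIs, held Esm1 in 8 (21.6%, interval 9.83 to 38.2), which overlaps the share within the gate. Of these 37 cells, 32 carried at least 1 of 10 endothelial markers and 23 carried at least 3. These counts do not separate free Esm1 RNA from Esm1 of the cells themselves. The part of free Esm1 RNA in the Esm1 shares was not tested. In HFHC 3, Esm1 was found in 0.117% of the 854 cells outside the gate. The 3 LSEC-gated cells of HFHC 3 held only 10 Esm1 UMIs, against 426 in those of HFHC 4. With so few Esm1 transcripts in HFHC 3, its share cannot measure free Esm1 RNA in HFHC 4. At the edge of the gate, 8 of the 192 positive cells of HFHC 4 had exactly 2 LSEC genes, and 4 of 25 cells that missed the gate with 1 LSEC gene and no Vwf carried 1 of the 4 genes or more.

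Detection of the 4 genes overlapped in the same cells of HFHC 4. A channel gene was found in 64 of 131 Esm1-positive LSEC-gated cells (48.9%, interval 40.03 to 57.7), against 61 of 405 cells without Esm1 (15.1%, 11.7 to 18.9). Kcnj8 shared 39 cells with Esm1, Kcne3 shared 31 and Abcc9 shared 28, while 15 cells held both channel subunits Kcnj8 and Abcc9. All 4 genes were found in 8 cells and exactly 1 of them in 120. Esm1-positive cells were deeper, with a median of 2138 UMIs against 1438 in cells without Esm1. Each cell was then thinned to 1000 UMIs, leaving out 141 shallower LSEC-gated cells of HFHC 4, and the gate was applied again to the thinned counts. The shares were 32.9% (22.5 to 44.6) of 76 cells with Esm1 and 11.4% (8.04 to 15.4) of 308 cells without it. In control 3, 1 of 3 Esm1-positive cells held a channel gene.

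How strongly a cell was positive varied widely. In HFHC 4, 75 positive cells had a sum of 1 UMI, just inside the rule, 61 had 2 or 3 and 56 had 4 or more, up to 31. In control 3 the same classes held 14, 1 and 1 cells. The number of positive cells depends on depth, since positive cells of HFHC 4 had a median of 2098.5 UMIs and the other LSEC-gated cells 1335, while in control 3 the medians were 1546.5 and 1469.5 UMIs. Thinning to 1000 UMIs gave a share of 28.9% in HFHC 4 and 1.80% in control 3.

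The second comparison set positive cells against the other LSEC-gated cells of the same library, on genes the rule did not use. UMIs were summed over the positive and over the other LSEC-gated cells of HFHC 4 and of control 3, and the 4 sums were tested with edgeR's quasi-likelihood test with the mouse as a block. Of 5775 genes tested, 0 were higher and 3 were lower in positive cells at a Benjamini-Hochberg adjusted p under 0.05, or 0.0% and 0.0519% of those tested. At an unadjusted p under 0.05, 66 genes were higher and 120 lower, and DESeq2 called 0 genes in either direction, with 23 at an unadjusted p under 0.05. The 3 genes were Ly6a, Cd9 and Plac8. The median log2 fold change of all genes tested was -0.07. The test rests on 2 mice, and folds are given with counting intervals within each library.

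Ly6a, which encodes the surface protein Sca-1 of capillary, portal and progenitor-like endothelium, was lower in positive cells of both libraries. It stood at 693 CPM in positive and 1791 CPM in other LSEC-gated cells of HFHC 4, a ratio of 0.387 (95% counting interval 0.338 to 0.442). In control 3 it stood at 510 CPM in positive and 1295 CPM in other cells, a ratio of 0.394 (0.209 to 0.677). The log2 fold change was -1.38 ± 0.31 (SE, 2 mice), with an edgeR adjusted p of 0.0221. The tetraspanin gene Cd9, another marker of large-vessel endothelium, fell with a log2 fold change of -1.53 ± 0.34 and an edgeR adjusted p of 0.0197. It stood at 254 CPM in positive and 635 CPM in other cells of HFHC 4, and at 78.5 CPM, from 2 UMIs, in positive and 598 CPM in other cells of control 3. The values of both genes were lower in positive cells of each library. Requiring at least 5 of the 6 LSEC genes, a gate added after seeing the data, gave a ratio of 0.396 for Ly6a and 0.449 for Cd9 in HFHC 4, with edgeR adjusted p-values of 0.00159 for Ly6a and 0.202 for Cd9. At least 3 of the 6 genes gave adjusted p-values of 0.0913 for Ly6a and 0.0777 for Cd9, and no filter on low counts gave 0.999 for both, so these calls are lost there. In cells thinned to 1000 UMIs the ratios in HFHC 4 were 0.357 (0.270 to 0.466) for Ly6a and 0.216 (0.121 to 0.361) for Cd9.

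Plac8, a small cysteine-rich protein gene best known from immune cells, did not behave alike in the 2 libraries. It was named here after its values were seen, since the naming rule asks for 1 direction in every library. In HFHC 4 it had 2 UMIs in positive cells and 100 UMIs, in 38 cells, in the others, at 4.70 and 199 CPM. In control 3 it had 3 UMIs in 1 positive cell and 10 UMIs in 8 of the other cells, at 117.8 and 13.0 CPM. The edgeR log2 fold change of -3.65 ± 0.71 (adjusted p = 0.00169) for Plac8 thus rests on HFHC 4.

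Summed markers of large-vessel endothelium were also lower in positive cells, mostly through Ly6a and Cd9. The 10 markers of that list, which include Ly6a and Cd9, summed to 1578 CPM in positive and 3182 CPM in other LSEC-gated cells of HFHC 4, and to 903 CPM in positive and 2335 CPM in other cells of control 3. Vwf is at 0 by the gate, and 3 of the 10, Vwf included, were at 0 in positive cells of HFHC 4, and 1 in the others. The 8 markers without Ly6a and Cd9 summed to 632 CPM (558 to 712) in positive and 756 CPM (682 to 836) in other cells of HFHC 4, and to 314 CPM (136 to 619) in positive and 442 CPM (396 to 492) in other cells of control 3. The 9 arterial markers summed to 183 CPM in positive and 355 CPM in other cells of HFHC 4, and to 432 CPM in positive and 646 CPM in other cells of control 3. The 12 LSEC markers, of which 6 are the gate genes, summed to 10917 CPM in positive and 13112 CPM in other cells of HFHC 4. In control 3 they summed to 20419 CPM in positive and 19851 CPM in other cells. The gate genes alone made up 8409 and 10343 CPM of these in HFHC 4, and 16335 and 15770.5 CPM in control 3. Both classes of cells were chosen on the gate genes, so these sums are descriptions. What part an admixture of large-vessel cells among the other LSEC-gated cells has in the result was not tested.

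Genes of both ends of the liver lobule were lower in positive cells of HFHC 4, by count and median. Blood flows from the portal vein, at the periportal end, to the central vein, at the pericentral end, and LSEC express different genes along the way. Of 12 pericentral genes with at least 20 UMIs in the library's LSEC-gated cells, 1 had a ratio above 1 and the median ratio was 0.626. Of 15 periportal genes, 2 had a ratio above 1 and the median was 0.672, while over all 5388 such genes 2198 (40.8%) had a ratio above 1, with a median of 0.929. None of the 13 genes tested of each list passed. The whole periportal list summed to 3168 CPM in positive and 3947 CPM in other cells of HFHC 4. In control 3 its sum was higher in positive cells, at 2866 CPM from 73 UMIs, than in other cells, at 2551 CPM. The whole pericentral list summed to 5549 CPM in positive and 6762 CPM in other cells of HFHC 4. In control 3 it summed to 2120 CPM in positive and 4025 CPM in other cells. Wnt2, an angiocrine signal of central LSEC to hepatocytes, had 22 UMIs in positive and 84 in other cells of HFHC 4, a ratio of 0.310 (0.184 to 0.500), and 5 UMIs in positive and 301 UMIs in other cells of control 3, a ratio of 0.503 (edgeR adjusted p = 0.129). Cdh13, a cadherin that binds adiponectin and LDL, had 3 UMIs in positive and 31 in other cells of HFHC 4, and 0 UMIs in positive and 55 in other cells of control 3. Thbd, the thrombin receptor thrombomodulin, had 8 UMIs in positive and 42 in other cells of HFHC 4, and 0 in positive and 42 in other cells of control 3. Rspo3, a Wnt enhancer that stands in the large-vessel list too, had 3 UMIs in positive and 20 in other cells of HFHC 4, and 0 in positive and 41 in other cells of control 3. Of the periportal genes, Efnb1, an ephrin, had 27 UMIs in positive and 82 in other cells of HFHC 4, a ratio of 0.389 (0.242 to 0.608), and 0 UMIs in positive and 100 UMIs in other cells of control 3.

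Genes of sinusoidal specialisation had lower values in positive cells of HFHC 4 too, and 0 of 21 tested passed. In HFHC 4, 5 of 21 had a ratio above 1 and the median was 0.702. Hpgd, which breaks down prostaglandins, stood at 56.4 CPM in positive and 167 CPM in other cells of HFHC 4, and at 275 CPM in positive and 403 CPM in other cells of control 3. Cyp26b1, which breaks down retinoic acid, stood at 49.3 CPM in positive and 113 CPM in other cells of HFHC 4, and at 353 CPM in positive and 712 CPM in other cells of control 3. Plpp1, a phospholipid phosphatase of LSEC, stood at 326 CPM in positive and 522 CPM in other cells of HFHC 4, and at 1257 CPM in positive and 1675 CPM in other cells of control 3. By value, each of these 3 genes was lowest in positive cells of HFHC 4 and highest in the other cells of control 3. This order was not tested, and the positive cells of control 3 were few. Lyve1, a hyaluronan receptor of LSEC and lymphatics, went the other way, at 242 CPM in positive and 157 CPM in other cells of HFHC 4, and 589 CPM in positive and 341 CPM in other cells of control 3.

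Flow-responsive genes were mostly lower in positive cells of HFHC 4, with 3 of 12 ratios above 1 (median 0.789). Capillary and angiogenic genes lay nearer to all genes, with 7 of 22 ratios above 1 (31.8%, median 0.872). Over all genes 40.8% of ratios were above 1, with a median of 0.929. Klf2, a transcription factor induced by laminar shear, stood at 150.3 CPM in positive and 351 CPM in other cells of HFHC 4, a ratio of 0.428 (0.316 to 0.572), and at 157 CPM in positive and 506 CPM in other cells of control 3, a ratio of 0.311 (edgeR adjusted p = 0.129). Against that direction, Ctgf, a matricellular target of YAP, had 67 UMIs in positive and 19 in other cells of HFHC 4, a ratio of 4.17 (2.48 to 7.35), and 0 UMIs in positive and 7 UMIs in other cells of control 3 (edgeR adjusted p = 0.150). Angpt2, the angiopoietin released by sprouting endothelium, had 32 UMIs in positive and 11 in other cells of HFHC 4, a ratio of 3.44 (1.69 to 7.57), and 0 in positive and 12 in other cells of control 3. Its receptor Tek stood at 146 CPM in positive and 298 CPM in other cells of HFHC 4, and at 236 CPM in positive and 336 CPM in other cells of control 3. Adm, the vasodilator peptide adrenomedullin, stood at 89.2 CPM in positive and 37.7 CPM in other cells of HFHC 4, and at 78.5 CPM in positive and 37.6 CPM in other cells of control 3, there from 2 UMIs in positive cells. Of the 30 capillary and angiogenic genes, 21 were tested, 0 passed as higher and 1, Ly6a, as lower, and of the 12 flow-responsive genes tested none passed.

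Among chemokine and interferon genes, Irf8 and Cxcl9 had higher values in positive cells of both libraries, without passing the test. Irf8, a transcription factor induced by interferon gamma, stood at 106 CPM in positive and 35.7 CPM in other cells of HFHC 4, a ratio of 2.96 (1.68 to 5.43), and at 353 CPM in positive and 77.8 CPM in other cells of control 3, a ratio of 4.54 (1.98 to 9.21), with an edgeR adjusted p of 0.129. Cxcl9, a ligand of CXCR3 on activated T cells, stood at 413 CPM in positive and 191 CPM in other cells of HFHC 4. In control 3 it stood at 275 CPM in positive and 132 CPM in other cells. The edgeR adjusted p of Cxcl9 was 0.319. Its log2 ratio in HFHC 4 was 1.12, and 0.701 after thinning to 1000 UMIs. The interferon list as a group showed no such direction, with 8 of 21 ratios above 1 in HFHC 4 and a median of 0.905. Of the 22 interferon genes tested, 0 passed.

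Differences of at least 2-fold were few in HFHC 4, at 8.24% of genes. Positive cells were at least 2-fold above the others for 144 of 5388 genes (2.67%) and at least 2-fold below for 300 (5.57%). Odc1, which starts polyamine synthesis, was chosen after its values were seen. It had 94 UMIs in 41 positive cells and 26 UMIs in 20 other cells of HFHC 4, a ratio of 4.28 (2.75 to 6.88), and 0 UMIs in positive and 12 UMIs in other cells of control 3 (edgeR adjusted p = 0.127). Another potassium channel gene, Kcnj2, which encodes the inward rectifier Kir2.1, was also chosen after seeing values. It had 26 UMIs in 21 positive cells and 5 UMIs in 5 other cells of HFHC 4, a ratio of 6.15 (2.32 to 20.5), and 0 UMIs in positive and 5 UMIs in other cells of control 3. Of 30 other potassium channel genes, 21 were at 0 UMIs in positive cells of HFHC 4 and 4 passed the filter on low counts, of which none passed the test.

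**Figure D3:**
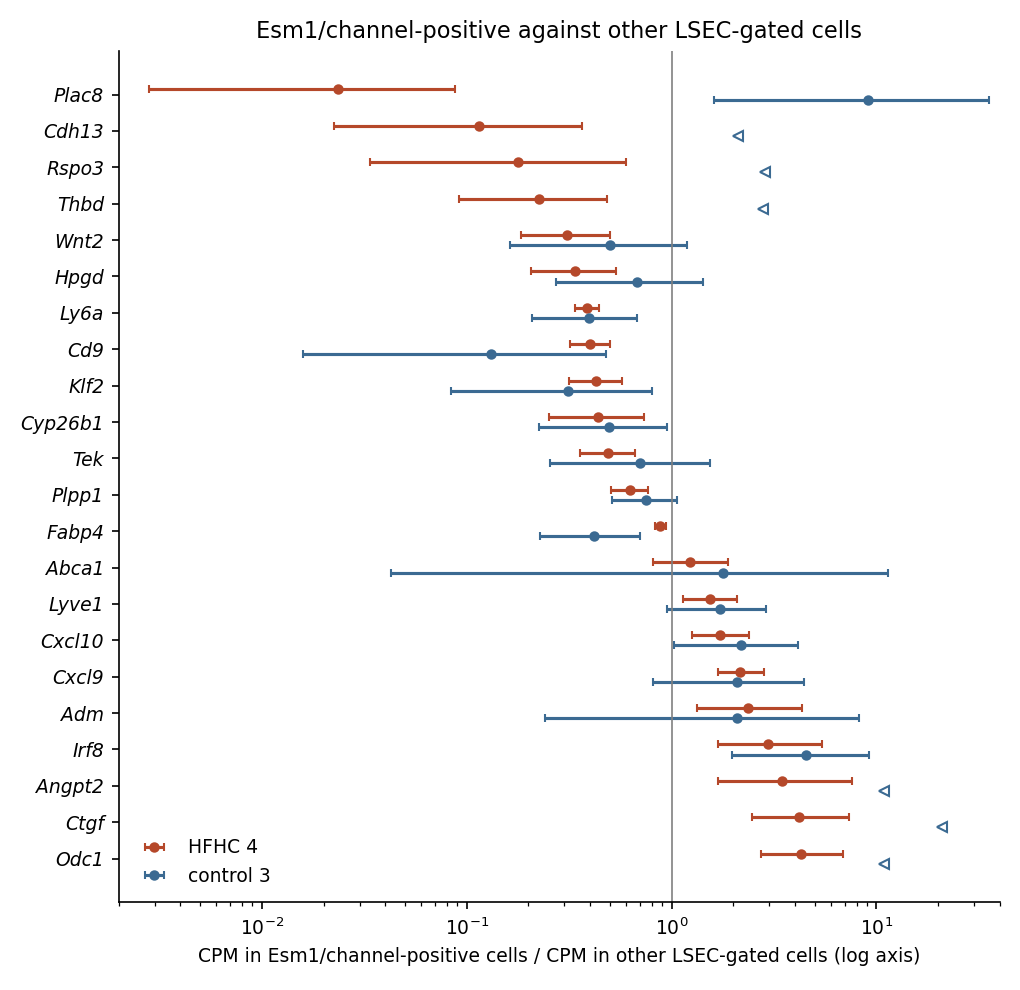
Ratio of CPM in positive cells to CPM in other LSEC-gated cells (log axis) for 22 genes in HFHC 4 (upper point of each pair) and control 3 (lower point); bars are exact 95% counting intervals, and open triangles give the upper limit where control 3 positive cells had 0 UMIs. Ly6a, Cd9 and Klf2 lie under 1 and Irf8 above 1 with their whole interval in both libraries, and Plac8 lies on opposite sides.

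Within HFHC 4, the more UMIs of the 4 genes a cell had, the further Ly6a and Cd9 were from the other cells. Ly6a stood at 1791 CPM with a sum of 0, 1023 with 1, 734 with 2 or 3 and 341 with 4 or more, and Cd9 at 635, 375, 237 and 151 CPM over the same classes. Klf2 stood at 351, 191, 158 and 105 CPM. Odc1 stood at 51.6, 123, 103 and 413 CPM, so that most of its gap lay in the 56 cells with 4 or more. Cxcl9, at 191, 423, 418 and 400.1 CPM, was near its full level already with a sum of 1. Cd36, a fatty acid and oxidised LDL receptor named after its values were seen, stood at 1209, 1255, 1373 and 1410 CPM. Cytosolic ribosomal protein transcripts, a list added after seeing values, took 206231, 237024, 257101 and 275699 CPM, while median depth was 1335, 1762, 2099 and 2456.5 UMIs. All 80 such genes with enough UMIs had a ratio above 1 in positive cells of HFHC 4, with a median of 1.26, and none of the 80 tested passed. A CPM is a share, so a larger ribosomal share lowers the CPM of other genes, and its part in the small ratios was not tested.

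**Figure D4:**
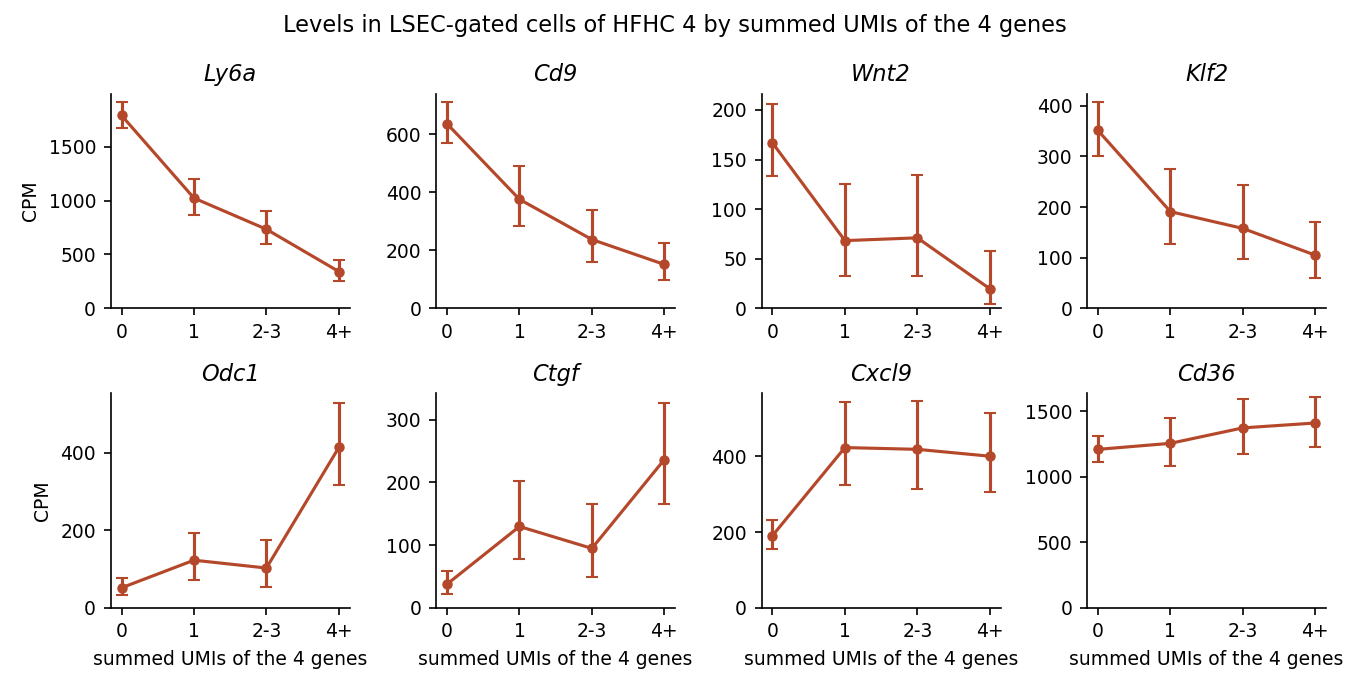
CPM of 8 genes in LSEC-gated cells of HFHC 4, grouped by the summed UMIs of Esm1, Kcne3, Kcnj8 and Abcc9 in the cell (0, 344 cells; 1, 75 cells; 2 or 3, 61 cells; 4 or more, 56 cells); bars are exact 95% Poisson intervals. Ly6a, Cd9 and Klf2 decline from class to class, Odc1 is highest with 4 or more, and Cd36 lies between 1209 and 1410 CPM.

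Cells that entered through Esm1 and through channel genes had different values, which were not tested. In HFHC 4, 64 cells had Esm1 with a channel gene, 67 had Esm1 alone and 61 a channel gene without Esm1. Ly6a stood at 396, 769 and 1023 CPM in these classes, against 1791 CPM in cells with none of the 4 genes. Angpt2 stood at 128, 54.3 and 24.0 CPM, the last from 3 UMIs, against 21.8 CPM with none. Odc1 stood at 378, 69.9 and 159.9 CPM, against 51.6 CPM with none. The median depths of the 3 classes were 2448, 1676 and 1879 UMIs. The lowest Ly6a and the highest Angpt2 and Odc1 values were in cells with Esm1 and a channel gene together.

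The third comparison set HFHC 4 against control 3 within positive cells, beside the same ratio in the other LSEC-gated cells. With 1 mouse per diet it has no replicate check, and the positive cells of control 3 held 25467 UMIs, against 425829 in HFHC 4. At that depth, 20.7% of 3129 genes were at least 2-fold higher and 14.6% at least 2-fold lower in positive cells, against 3.09% and 6.48% of 6634 genes in the other cells. In either direction these were 35.3% of genes in positive and 9.57% in other cells. The other cells held 503717 UMIs in HFHC 4 and 771189 in control 3, and what part the smaller counts of positive cells have in these shares was not tested.

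Fatty acid genes mostly had higher values in HFHC 4 than in control 3, in positive and in other cells, with no test and 1 mouse per diet. All 7 genes of the list with at least 20 UMIs had a ratio of HFHC 4 over control 3 above 1 in positive cells, with a median of 2.57, and 9 of 11 in the other cells, with a median of 1.35. Over all genes, 1615 of 3129 ratios were above 1 in positive cells, with a median of 1.05, and 2790 of 6634 in other cells, with a median of 0.936. Fabp4, the fatty acid binding protein of capillaries, stood at 4070 CPM in positive cells of HFHC 4 and 549.7 CPM in those of control 3, a ratio of 7.40 (4.40 to 13.6). In other LSEC-gated cells it stood at 4614 CPM in HFHC 4 and 1317 CPM in control 3, a ratio of 3.50 (3.25 to 3.77). Within HFHC 4 the ratio of positive to other cells was 0.882 for Fabp4 and 1.11 (0.991 to 1.25) for Cd36. Cd36 stood at 1346 CPM in positive cells of HFHC 4 and 942 CPM in those of control 3, and in other cells at 1209 CPM in HFHC 4 and 535.5 CPM in control 3. Abca1, the cholesterol exporter, stood at 115 CPM in positive cells of HFHC 4 and 39.3 CPM, from 1 UMI, in those of control 3, and in other cells at 93.3 CPM in HFHC 4 and 22.0 CPM in control 3, a ratio of 4.23 (2.39 to 7.86).

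Genes of sinusoidal specialisation mostly had lower values in HFHC 4 than in control 3, in positive and in other cells. None of 19 such genes had a ratio of HFHC 4 over control 3 above 1 in positive cells, with a median of 0.578, where 1615 of all 3129 genes did, and 4 of 21 did in other cells, with a median of 0.700, where 2790 of all 6634 did. The ratio of Cyp26b1 was 0.140 (0.0613 to 0.346) in positive and 0.159 (0.119 to 0.209) in other cells. The ratio of Plpp1 was 0.260 in positive and 0.312 in other cells. Hpgd had a ratio of 0.205 in positive and 0.414 in other cells. Cytosolic ribosomal protein transcripts took 256847 CPM in positive cells of HFHC 4 and 166097 CPM in those of control 3. In other cells they took 206231 CPM in HFHC 4 and 140683 CPM in control 3. What part this larger ribosomal share has in the lower ratios was not tested.

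By the naming rule, genes with large ratios of HFHC 4 over control 3 in positive cells included Fabp4, Lsm4, Snrnp27, Trp53i11 and Arf4. Apart from Fabp4, each of these had 1 UMI in the 16 positive cells of control 3. Among these 5 genes, only Fabp4 had a ratio with its interval above 1 in the other cells as well, of 3.50. The lowest ratios were those of Pxk, Agfg1, Cyp26b1, Stard3nl, Rpgrip1 and Commd7, at 0.111 to 0.164, and apart from Cyp26b1 their 6 to 8 UMIs in control 3 came from 3 or 4 cells. Without Cyp26b1, the ratios of these genes in other cells lay between 0.703 and 1.82.

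**Figure D5:**
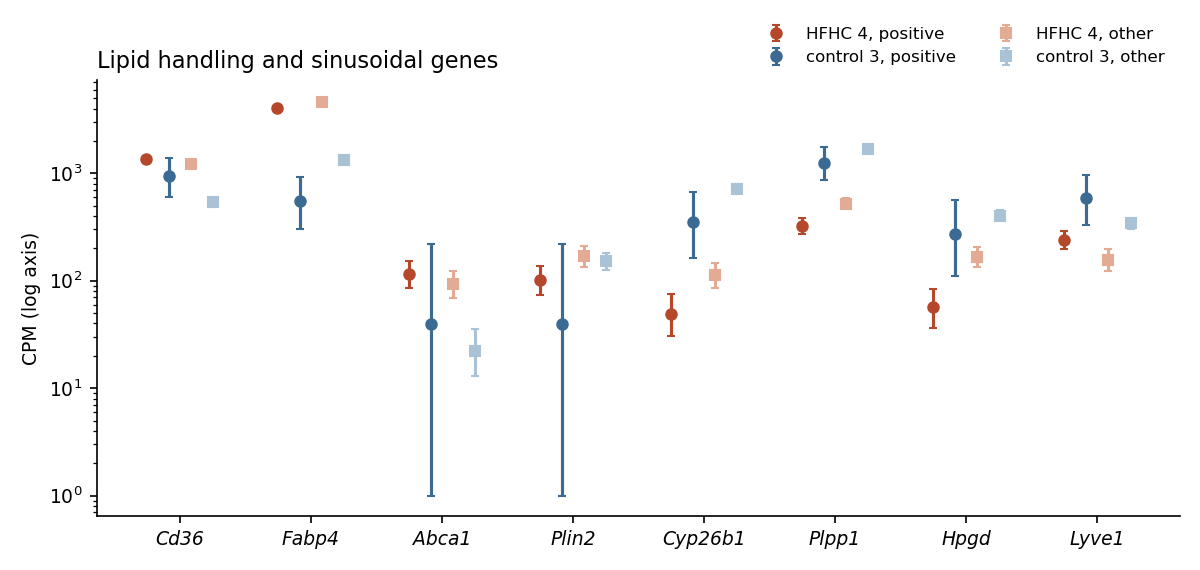
CPM (log axis) of 8 lipid handling and sinusoidal genes in positive cells of HFHC 4 and control 3 (dark points) and in other LSEC-gated cells of HFHC 4 and control 3 (light squares); bars are exact 95% Poisson intervals. The values of Fabp4 and Abca1 are higher, and those of Cyp26b1, Plpp1 and Hpgd lower, in HFHC 4 in both classes of cells, and the Abca1 and Plin2 values of positive control 3 cells rest on 1 UMI each.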

How the data were processed

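The authors deposited 1 matrix of UMI counts without normalization, with 31053 genes and 3416 cells from 8 libraries, 1 mouse each. Per the submitters' processing notes the authors used Cell Ranger 3.0.1 and Seurat on mm10. No source used here gives the Seurat version, the annotation or the cell filters.

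The population, the gene lists, the libraries compared and the tests were chosen with earlier results of these data known. Where libraries shared a barcode, the copy with the most UMIs stayed and the others were removed, which left 3192 cells. Counts of positive and of other LSEC-gated cells were summed for libraries with at least 10 cells of each, which only HFHC 4 and control 3 met, and tested with edgeR 4.0.16 in R 4.3.3 (TMM, filterByExpr, robust quasi-likelihood, Benjamini-Hochberg over 5775 genes). The 11 genes of the rule stayed in the totals and out of the test. The mouse was the block because both sums of a library come from 1 animal. The SE is the absolute log2 fold change over the square root of F. The fit was run on simulated data, with the same spread set for every gene and no mean difference between the mice. That run does not measure power or false calls in the real mice. Ratios of single sums carry exact conditional binomial intervals, shares exact binomial ones (scipy 1.17.1). Ratios needed at least 20 UMIs over both sums to enter a count or median. Scrublet (scanpy 1.11.5) called 9 positive and 12 other LSEC-gated cells of HFHC 4, and 0 positive and 26 other cells of control 3. They were kept, and left out in an alternative. Named genes were those past the threshold with 1 direction in every library, up to 4 per list with the smallest p, the 6 largest ratios each way between the libraries' positive cells, and others said to be chosen after their values were seen. A gene that this rule names is not reported here. DESeq2 1.42.0 and other gates, filters and choices of positive cells served as alternatives.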

Additional observations from a re-analysis of the deposited data

Results flagged for a closer look

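Plac8 went opposite ways in the 2 libraries, with a ratio of positive to other LSEC-gated cells of 0.0237 (0.00283 to 0.0877) in HFHC 4 and 9.08 (1.61 to 35.3) in control 3, and the difference between the libraries was not tested. Agfg1, which encodes a protein of vesicle trafficking, did the same, with a ratio of 0.436 (0.218 to 0.823) in HFHC 4 and 5.68 (1.94 to 13.8) in control 3, where 6 UMIs lay in 3 cells, and this difference was not tested.

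Among cells outside the LSEC gate, which the comparisons did not use, Kcne3 was found in 14 of 71 cells of HFHC 2 (19.7%, interval 11.2 to 30.9), above the highest share in a control library of 5.88%. All 14 cells carried at least 3 bile duct markers, and in that library 62 of the 71 cells did. In control libraries 1 to 4, 6 of 17, 16 of 808, 2 of 26 and 3 of 51 cells outside the gate carried as many. Of these control cells, 1, 3, 1 and 2 held Kcne3. What part the number of bile duct cells has in the Kcne3 share was not tested.

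A gated cell of HFHC 3, a library with too few LSEC-gated cells to be compared, had a sum of 16 UMIs of the 4 genes, above the highest sum of 6 in a control library.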

How the results depend on the processing

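The calls between positive and other LSEC-gated cells moved with the settings. Against 0 higher and 3 lower genes, DESeq2 gave 0 and 0, no filter on low counts 0 and 0, at least 3 LSEC genes 0 and 0, at least 5 LSEC genes 0 and 1 (Ly6a), no replicate block 0 and 1 (Col13a1), channel genes without Esm1 1 and 0 (Myc), no Scrublet calls 0 and 5, no cells with a leukocyte marker 1 (Odc1) and 3, and a minimum of 5 cells 1 (Odc1) and 1 (Igfbp5). The last setting added HFHC 1, whose positive cells carried bile duct and macrophage genes. DESeq2's size factors and kept barcode copies gave the same counts, 0 and 3. The cause of these changes was not tested. No replicate block means a fit without the mouse term, which moved Ly6a to an adjusted p of 0.591 at a log2 fold change of -1.30. Ly6a and Cd9 kept their direction in all 17 settings run for each, at -1.79 to -0.77 and -2.93 to -1.004 on the log2 scale. Without HFHC 4, the Plac8 log2 ratio was 3.18, and without control 3 it was -5.40, neither with a test.

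The share in HFHC 4 (35.8%) was 28.9% after thinning to 1000 UMIs, 21.8% with at least 2 UMIs, 24.4% by Esm1 alone, 23.3% by channel genes and 44.95% with at least 5 LSEC genes. The share in control 3 (2.92%) was 0.365% with at least 2 UMIs and 0.547% by Esm1 alone. Genes at least 2-fold apart between the libraries' positive cells were 35.3% as reported, 60.4% with at least 2 UMIs and 66.3% by Esm1 alone, where control 3 held 2 and 3 cells. Co-detection with another of the 4 genes was lower after thinning, at 32.9% of Esm1 cells, 53.3% of Kcne3 cells and 50% of Kcnj8 cells, against 48.9%, 74.0% and 67.2%.

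No test was possible after thinning, with at least 2 UMIs, by Esm1 alone, with at least 20 cells or without either library, since only 1 library then had enough cells. No paired analysis of the diets was possible because the replicate numbers of the mice tie no HFHC mouse to a control mouse. Depth limits every ratio that uses the positive cells of control 3, where 1 UMI is 39.3 CPM.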

Other observations

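Gene groups without a call between positive and other LSEC-gated cells still differed in their counts within HFHC 4, where 40.8% of all genes had a ratio above 1. Of 14 glycolysis and hypoxia genes, 10 had a ratio above 1, with a median of 1.10, and 0 of 13 passed the edgeR test. Pgk1, a glycolytic kinase, stood at 164 CPM in positive and 129 CPM in other cells of HFHC 4. Of 16 dissociation and heat shock genes, 12 had a ratio above 1, with a median of 1.10, and 0 of 16 passed. In that list Jund stood at 237 CPM in positive and 99.3 CPM in other cells of HFHC 4, and at 157 CPM in positive and 147 CPM in other cells of control 3, and Dusp1 went the other way, at 153 CPM in positive and 254 CPM in other cells of HFHC 4 and 157 CPM in positive and 315 CPM in other cells of control 3.

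Of 11 genes of antigen presentation, 2 had a ratio above 1 in HFHC 4, with a median of 0.832, and 0 of 11 passed. H2-T23, a non-classical class I gene, stood at 279 CPM in positive and 467 CPM in other cells of HFHC 4, and at 275 CPM in positive and 551 CPM in other cells of control 3. Of 8 genes that break down retinoids, adenosine and prostaglandins, 0 had a ratio above 1, with a median of 0.579, and 0 of 9 passed. Plpp3, a phosphatase of lysophosphatidic acid, stood at 509.6 CPM in positive and 836 CPM in other cells of HFHC 4, and at 785 CPM in positive and 1437 CPM in other cells of control 3.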
